A study of Mus musculus with 12 samples.

Results

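The nuclear-encoded subunits of the mitochondrial respiratory chain were followed at the RNA level in 2 cell types of mice with renal ischemia/reperfusion injury (IRI). Members were all genes present in both count tables whose symbol begins with Ndufa, Ndufb, Ndufc, Ndufs or Ndufv and a digit, with Uqcr, with Cox and a digit from 4 to 8, or with Atp5, or is Sdha, Sdhb, Sdhc or Sdhd, leaving out 8 names that end in -ps. This gave 85 of the 50421 gene symbols that the tables share. Complex I contributed 36 members, complex II 4, complex III 8, complex IV 20 and complex V 17. Ndufa4 and its paralog Ndufa4l2 were counted with complex IV, where the Ndufa4 protein resides. Cox7a2l, which helps to join complexes III and IV into supercomplexes, matched the rule although it is not a subunit of the mature enzyme.

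The mice were wildtype male C57BL/6J animals aged 8 to 12 weeks, and in all of them both renal pedicles had been clamped for 35 minutes. They received glutamine or physiologic saline (vehicle) intravenously after reperfusion, at 4 hours or at 15 minutes, since the sources differ on the time. Cells were taken 24 hours after IRI. Renal tubular epithelial cells (TECs) were sorted from kidney suspensions as CD45- and Prominin-1+, and neutrophils (polymorphonuclear cells, PMN) came from peripheral blood. Each of the 4 groups, TECs and PMN with vehicle or glutamine, had 3 libraries, and sham-operated mice were not analysed here. The labels do not say that the libraries of a group came from separate mice, so the p-values measure the spread between these libraries only.

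The respiratory chain passes electrons from NADH (complex I) and succinate (complex II) through ubiquinone to complex III, then through cytochrome c to complex IV, which reduces oxygen. Complexes I, III and IV pump protons across the inner mitochondrial membrane, and complex V, the ATP synthase, uses the gradient to make ATP. Complex II is encoded in the nucleus alone, whereas the other complexes also contain subunits made from mitochondrial DNA, which were not analysed here. The proximal tubule is densely packed with mitochondria and depends on oxidative phosphorylation, and neutrophils have few mitochondria and rely largely on glycolysis.

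Nuclear subunit genes are known to be driven from promoters with sites for the factors NRF1, GABP (an ETS factor), ERR and YY1. Promoters of 300 bases, from 250 bases before to 50 after the annotated start, were found in the RefSeq table (GRCm38.p6) for 65 of the 85 members, as 70 promoters. On either strand and counting overlaps, the NRF1 core GCGCANGC was present in 24 of these 70 promoters (34.3%) and in 9.95% of all 32851 promoters of the table. The ETS core CCGGAAG was present in 24.3% of the member promoters and 8.86% of all promoters. The YY1 motif AAGATGGCG was found in 7 member promoters (10% against 1.4% of all), and the ERR motif TCAAGGTCA in 2 (2.86% against 0.423%). By complex, the NRF1 core was found for 9 of 29 genes of complex I, 3 of 3 of complex II, 2 of 5 of complex III, 1 of 13 of complex IV and 8 of 15 of complex V. A match describes these letters in this window and is not evidence of a bound site.

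One promoter of each complex is printed 5′ to 3′ on the strand of its gene, because these 5 together hold all 4 motifs and include genes the comparisons turn on. Capitals mark the motif matches. The windows are, in the order of the complexes, chr13:73328433-73328732, chr9:50603800-50604099, chr10:80406772-80407071, chr5:115348909-115349208 and chr16:91931581-91931880 in GRCm38, all on the minus strand.
Ndufs6: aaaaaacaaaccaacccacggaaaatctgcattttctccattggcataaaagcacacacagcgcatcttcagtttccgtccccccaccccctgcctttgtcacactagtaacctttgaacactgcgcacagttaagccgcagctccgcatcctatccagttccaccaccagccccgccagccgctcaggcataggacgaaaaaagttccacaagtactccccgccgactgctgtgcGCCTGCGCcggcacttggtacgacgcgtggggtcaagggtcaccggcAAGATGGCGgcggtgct
Sdhd: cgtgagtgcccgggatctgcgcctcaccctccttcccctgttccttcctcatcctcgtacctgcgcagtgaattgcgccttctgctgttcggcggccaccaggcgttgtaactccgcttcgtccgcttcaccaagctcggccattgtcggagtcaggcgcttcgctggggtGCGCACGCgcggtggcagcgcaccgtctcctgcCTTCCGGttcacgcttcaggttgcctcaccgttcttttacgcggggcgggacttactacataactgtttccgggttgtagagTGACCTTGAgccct
Uqcr11: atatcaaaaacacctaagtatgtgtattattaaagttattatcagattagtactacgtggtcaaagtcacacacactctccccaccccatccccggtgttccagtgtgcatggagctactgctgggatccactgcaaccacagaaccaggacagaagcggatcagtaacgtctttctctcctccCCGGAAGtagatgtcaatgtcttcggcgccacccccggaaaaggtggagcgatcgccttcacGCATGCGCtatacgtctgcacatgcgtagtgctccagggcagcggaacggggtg
Cox6a1: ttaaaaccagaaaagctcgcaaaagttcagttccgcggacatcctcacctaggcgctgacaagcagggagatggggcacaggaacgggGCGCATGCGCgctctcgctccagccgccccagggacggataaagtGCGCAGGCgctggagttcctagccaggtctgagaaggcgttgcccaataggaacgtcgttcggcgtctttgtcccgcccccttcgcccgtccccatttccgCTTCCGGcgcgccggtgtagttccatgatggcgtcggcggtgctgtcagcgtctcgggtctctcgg
Atp5o: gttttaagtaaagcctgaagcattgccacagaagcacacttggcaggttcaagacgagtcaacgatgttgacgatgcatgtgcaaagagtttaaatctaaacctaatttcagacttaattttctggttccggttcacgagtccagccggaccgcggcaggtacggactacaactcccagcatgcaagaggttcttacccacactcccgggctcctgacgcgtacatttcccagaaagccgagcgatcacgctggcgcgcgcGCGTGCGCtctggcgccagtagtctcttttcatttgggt
The Ndufs6 promoter carries an NRF1 core and, after the start, the YY1 motif. The Sdhd promoter carries the NRF1, ETS and ERR motifs. The Uqcr11 promoter carries an ETS match ahead of an NRF1 core. The Cox6a1 promoter carries 3 NRF1 matches, of which a pair overlaps on opposite strands, and an ETS match, and the Atp5o promoter a single NRF1 core just after the start.

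The values are estimated counts for each gene symbol as the authors deposited them, here rounded, scaled by edgeR's TMM method within each cell type and are given as CPM, counts relative to the scaled library total. The TEC libraries held 5397370 to 10223461 counts, with glutamine replicate 2 the shallowest, and the PMN libraries held 20225246 to 21878446. The labels were checked against marker genes. In TECs the sort marker Prom1 lay between 64.6 and 83.5 CPM and Ptprc, which encodes CD45, between 0.102 and 2.74 CPM, while the 9 proximal tubule markers summed to between 8831 and 16990 CPM. The 4 hemoglobin genes, which mark erythroid cells, summed to 6708 CPM in TEC glutamine replicate 2 and 4395 CPM in TEC vehicle replicate 5, and to between 802 and 1599 CPM in the other TEC libraries. In PMN the 11 neutrophil markers, among them S100a8, S100a9 and Ly6g, summed to between 22080 and 73040 CPM, lowest in glutamine replicate 3 and highest in glutamine replicate 1. S100a8 and S100a9 had at least 131686 and 135678 counts in each PMN library, whereas the granule genes Camp and Ltf had 0 counts in at least 1. PMN vehicle replicate 1 stood apart by 1025 CPM of the tubule gene Umod, and vehicle replicate 2 by 619 CPM of the endothelial gene Kdr, against at most 33.4 CPM of Umod and 0 CPM of Kdr in the glutamine libraries. The summed B cell markers lay between 20.9 and 33.4 CPM in the PMN glutamine libraries and between 0.501 and 2.65 CPM in the vehicle libraries. The part of these differences in the results below was not tested.

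Most subunit genes were expressed in both cell types. Of the 85 members, 76 passed the filter on low counts in TECs and 75 in PMN, and 73 passed in both. The 7 that passed in neither were Cox6c2, Cox7b2, Cox8b, Cox8c, Ndufa4l2, Ndufa11b and Ndufs6b. Cox8b is a heart and muscle isoform and Cox8c a testis isoform. The summed level of all members was 26430 ± 2464 CPM in TECs with vehicle and 10920 ± 476 CPM in PMN with vehicle (SD, n = 3 each). The tables were normalized separately, so the 2 cell types are set side by side and were not tested against each other.

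Levels per transcript length, in CPM per kilobase of the median protein-coding transcript, spanned a wide range within a single complex. In TECs the median tested member of complex IV had 924 CPM per kilobase, that of complex III 625, of complex V 568, of complex I 189 and of complex II 70.1. In PMN the medians were 244 for complex IV, 246 for complex III, 133 for complex V, 82.2 for complex I and 92.0 for complex II. Complexes III and IV thus stood highest in both tables and complexes I and II lowest. Within complex I the lowest member per length was Ndufs1, the largest core subunit of the electron-input arm, in both cell types, at 14.3 CPM per kilobase in TECs and 17.5 in PMN. The highest complex I member was Ndufa2 in TECs (1372) and Ndufb9 in PMN (240). Sdhd, which anchors complex II in the membrane, was the lowest complex II member in TECs (12.4 CPM per kilobase) and the highest in PMN (197). The transcript lengths are annotation medians, which limits comparisons between single genes.

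**Figure D1:**
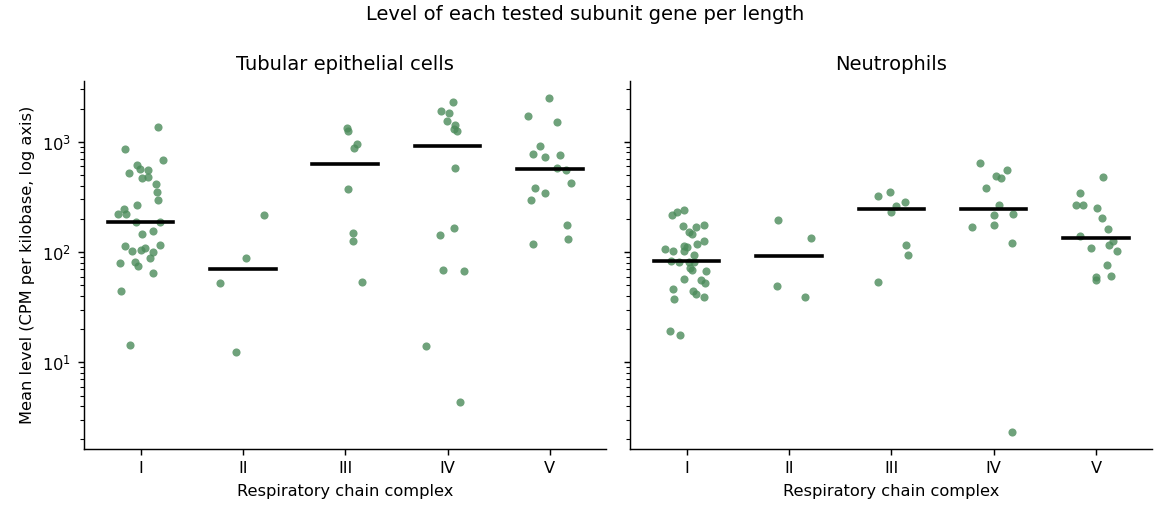
Mean level over the 6 libraries of each tested member with a known transcript length, in CPM per kilobase on a log axis, by complex, in TECs (left) and neutrophils (right). Points are genes and bars are medians, which in TECs range from 70.1 for complex II to 924 for complex IV.

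The paired isoforms of complex IV were represented by the ubiquitous form in both cell types. Cox4i1 lay between 894 and 1244 CPM in the 6 TEC libraries and between 272 and 565 CPM in the 6 PMN libraries. Its partner Cox4i2, an isoform known from lung and induced by hypoxia, had 0 to 7 counts per TEC library. In PMN Cox4i2 had 33 and 151 counts in glutamine replicates 1 and 3, 20 counts in vehicle replicate 2 and 0 counts in the other 3 libraries. Cox6a2, the heart and muscle partner of Cox6a1, had 18 to 31 counts per TEC library and 0 counts in each PMN library. Cox7a1, another heart and muscle isoform, had 146 to 345 counts in every TEC library, against 4841 to 9283 counts of Cox7a2. In PMN Cox7a1 had 96 counts in vehicle replicate 3 and 0 in the other 5 libraries. Cox6b2, a testis isoform, had 27 to 86 counts in each TEC library and was found in 2 of the 6 PMN libraries, with 198 and 82 counts. Cox8a, the ubiquitous form of its trio, had 8947, 9426 and 11021 counts in the TEC vehicle libraries, and Cox8b and Cox8c had at most 1 count in any library. Cox7b2 had 4 counts and Ndufa4l2 1 count, each in a single TEC library. The tissue-restricted forms that were counted in every TEC library, Cox6a2, Cox6b2 and Cox7a1, were thus each far below their partner. The 3 genes that encode the same c-ring protein of complex V were all expressed in both cell types. In TECs Atp5g3 was the most abundant of them, at 650 ± 47.8 CPM after vehicle and 671 ± 128 CPM after glutamine, and in PMN Atp5g1 was, at 153 ± 39.8 and 146 ± 35.7 CPM (SD, n = 3). Atp5g2 was the least abundant in both, at 192 ± 17.9 and 210 ± 16.0 CPM in TECs.

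In TECs the comparison of glutamine with vehicle gave small differences, most of them toward higher values. The summed members had 26310, 24030 and 28960 CPM in vehicle replicates 3, 4 and 5, and 25320, 31800 and 29440 CPM in glutamine replicates 1, 2 and 3. For the sum, glutamine replicate 1 lay between the vehicle libraries. The groups overlapped for the sum and for each complex alone, and for complex II glutamine replicate 1 was the lowest of all 6 libraries (519 CPM). The mean of the sum was 9.17% higher with glutamine, a difference smaller than the spread within the groups (SD 2464 and 3280 CPM). Of the 76 tested members 60 had a log2 fold change above 0 (78.9%, against 50.6% of all 14734 genes tested) and 16 below 0 (49.4% of all genes). The median log2 fold change was 0.12 for the members and 0.01 for all genes. No member passed an adjusted p-value of 0.05 in edgeR's quasi-likelihood test (0 of 14734 genes, 0%), and the smallest adjusted p-value among the members was 0.373. At an unadjusted p-value below 0.05, 1 member was lower (1.32%, against 5.51% of all genes) and 0 were higher (7.23% of all genes). DESeq2 likewise had 1 member lower (5.47% of all genes) and 0 higher (8.16% of all genes) at that threshold, and 0 after adjustment (0.561% of all genes lower and 1.81% higher). Of the members, 6 had every glutamine library above every vehicle library (7.89%, against 9.01% of all genes) and 2 had every glutamine library below (2.63%, against 9.81%), so the shares in both directions were at or under the background.

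Some tubule markers lay apart between the TEC groups. Havcr1, the injury marker also known as Kim-1, had 793, 541 and 106 CPM after vehicle and 94.0, 49.4 and 26.2 CPM after glutamine, without overlap (DESeq2 adjusted p = 0.0322, edgeR adjusted p = 0.178). Slc12a1, the salt transporter of the thick ascending limb, had 38.3, 45.0 and 38.0 CPM after vehicle and 53.0, 143 and 104 CPM after glutamine, also without overlap (DESeq2 adjusted p = 0.00978, edgeR adjusted p = 0.207). The lists for the proximal tubule, injured tubule, thick ascending limb, distal convoluted tubule and collecting duct held 27 markers. Of these, Havcr1 was the 1 with every glutamine library below every vehicle library (9.81% of all genes tested). Slc12a1, Calb1, Slc5a2 and Slc22a6 were the 4 with every glutamine library above (9.01% of all genes). In edgeR's test 0 of the 26 tested markers passed the adjusted threshold (0% of all genes). In DESeq2 2 did, Havcr1 and Slc12a1 (0.561% of all genes lower and 1.81% higher). The summed level of each of the 5 lists overlapped between the groups, with 11790 to 14210 CPM after vehicle and 8831 to 16990 CPM after glutamine for the proximal tubule, and 2202 to 5021 and 2348 to 2745 CPM for the injured tubule. The thick ascending limb list had 1041 to 2044 and 1290 to 2274 CPM, the distal convoluted tubule list 78.1 to 127 and 123 to 224 CPM, and the collecting duct list 106 to 225 and 106 to 314 CPM. Ptprc and the myeloid gene Lyz2 were low but above every vehicle library in each TEC glutamine library, Ptprc at 0.102 to 1.52 against 1.81 to 2.74 CPM and Lyz2 at 1.12 to 2.57 against 3.95 to 12.4 CPM. Ptprc rested on 1 to 25 counts per library. The TEC groups overlapped for the other monocyte and macrophage markers (Csf1r, Ly6c2, Ccr2, Adgre1, Cd68 and C1qa) and for every neutrophil marker listed. The part of these markers in the subunit values was not tested.

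These counts rest in part on the scaling and on single libraries. With libraries scaled to total counts alone the median of the members was -0.04 and that of all genes -0.16, and 49 of 76 members then had a log2 fold change below 0. The median of the members exceeded that of all genes by 0.12 under both scalings. Without the filter on low counts it lay below it, at 0.09 against 0.14 for all genes. Predicted, Rik and sensory receptor genes together took 17.5%, 20.8% and 23.3% of the counts in the TEC vehicle libraries and 27.8%, 26.4% and 30.8% in the glutamine libraries (95% Wilson intervals of at most 0.037 percentage points either side, counting error only). Without glutamine replicate 2 the median of the members was 0.03, and without vehicle replicate 4 it was 0.06. Relative to the vehicle mean, the median member stood at -0.10 in glutamine replicate 1, 0.28 in replicate 2 and 0.20 in replicate 3, and at 0.00, -0.12 and 0.11 in the vehicle libraries (log2 of CPM plus 1).

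**Figure D2:**
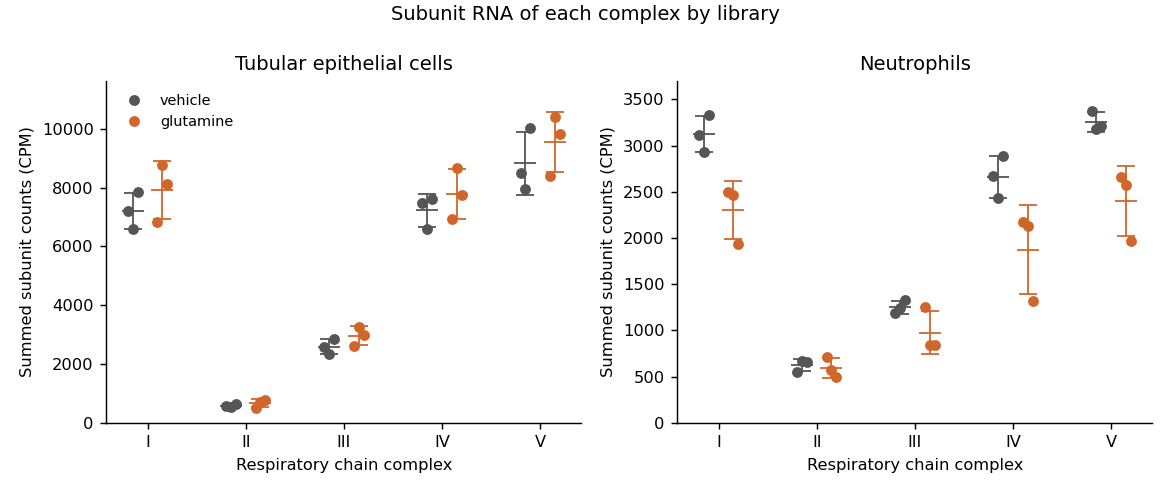
Summed CPM of all members of each complex in each library, for TECs (left) and neutrophils (right). Points are libraries, bars and whiskers are mean and SD of 3, and in neutrophils every glutamine library lies below every vehicle library for complexes I, IV and V.

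Complex I is the entry point for electrons from NADH and the largest member group. In TECs its median log2 fold change was 0.14, with 24 of 33 tested members above 0. The lowest was Ndufb3, an accessory subunit of the membrane arm on chromosome 1 (58586384 to 58595964, GENCODE M21 on GRCm38). Ndufb3 had 152, 203 and 154 CPM in the vehicle libraries and 103, 104 and 148 CPM in the glutamine libraries. All glutamine libraries lay below all vehicle libraries, though glutamine replicate 3 by little. Its log2 fold change was -0.52 (SE, the standard error, 0.22, with an adjusted p = 0.373 in edgeR's quasi-likelihood test), and it was the member that passed the unadjusted threshold. Ndufa2, the most abundant complex I member in TECs, had 719, 589 and 758 CPM after vehicle and 791, 1044 and 808 CPM after glutamine. Those groups did not overlap, at 0.35 on the log2 scale (SE 0.20, edgeR adjusted p = 0.488). Ndufa13, the next in abundance, had 567 ± 76.1 and 621 ± 107 CPM. Ndufs3, a core subunit, and Ndufv3 were the other complex I members with all glutamine libraries above all vehicle libraries, at 0.36 and 0.29.

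Complex I subunits that the study followed as proteins gave overlapping groups in TECs. Ndufs1 had 34.6 ± 5.55 CPM after vehicle and 40.4 ± 5.57 CPM after glutamine, and Ndufc2, which joins the membrane arm, had 104 ± 11.1 and 114 ± 35.5 CPM. Ndufb9 had 345 ± 69.4 and 385 ± 62.4 CPM, and Ndufa11 126 ± 36.8 and 141 ± 25.4 CPM (SD, n = 3 throughout). Their log2 fold changes lay between 0.14 for Ndufc2 and 0.23 for Ndufs1, with standard errors of 0.22 to 0.25, so none exceeded its own standard error. Whether these proteins differed cannot be read from the RNA.

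In the remaining complexes no TEC member had a p-value below 0.05. The 4 members of complex II had a median of 0.14 on the log2 scale. Sdhd stood out as low, with 271, 154 and 145 counts after vehicle and 57, 52 and 170 counts after glutamine (log2 fold change -0.62, standard error 0.41, adjusted p = 0.552), and the groups overlapped through glutamine replicate 3. Sdha, the flavoprotein that oxidizes succinate, had a log2 fold change of 0.29 (standard error 0.20). All 8 members of complex III lay between 0.01 for Uqcrb and 0.35 for Uqcr11, with a median of 0.16. Uqcr10 and Uqcr11, both small accessory subunits, had all glutamine libraries above all vehicle libraries. The most abundant, Uqcrq and Uqcrh, had overlapping groups, with 574 ± 118 and 683 ± 55.1 CPM for Uqcrh. Uqcr11 had 343 ± 52.7 CPM after vehicle and 438 ± 50.9 CPM after glutamine (SD, n = 3).

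Complex IV and complex V had the smallest medians in TECs, both at 0.09. The extremes of complex IV were its sparse tissue isoforms. Cox6a2 had 18, 26 and 19 counts after vehicle and 28, 25 and 31 counts after glutamine (log2 fold change 0.95, standard error 0.56, adjusted p = 0.497), and Cox6b2 had 64, 86 and 79 counts after vehicle and 28, 27 and 51 counts after glutamine (log2 fold change -0.62, standard error 0.41, adjusted p = 0.549). In CPM the groups of both did not overlap, in opposite directions. The abundant Cox6a1 had 1302 ± 103 and 1306 ± 160 CPM, and Cox6c 1067 ± 61.3 and 1148 ± 167 CPM. In complex V the highest value was that of Atp5e, the epsilon subunit of the catalytic head, with 290, 283 and 247 CPM after vehicle and 341, 495 and 287 CPM after glutamine (log2 fold change 0.45, standard error 0.23, adjusted p = 0.439). Atp5b, the catalytic beta subunit, had 1035 ± 60.1 and 1101 ± 189 CPM. The lowest value was that of Atp5md, at -0.17 (standard error 0.19). Atp5o, the most abundant complex V member in TECs, had 1032 ± 283 and 1292 ± 135 CPM. Atp5k, which encodes the membrane subunit e, showed that a single library can move a group, with 12213 counts in vehicle replicate 5 against 5662 and 5496 counts in the other vehicle libraries.

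**Figure D3:**
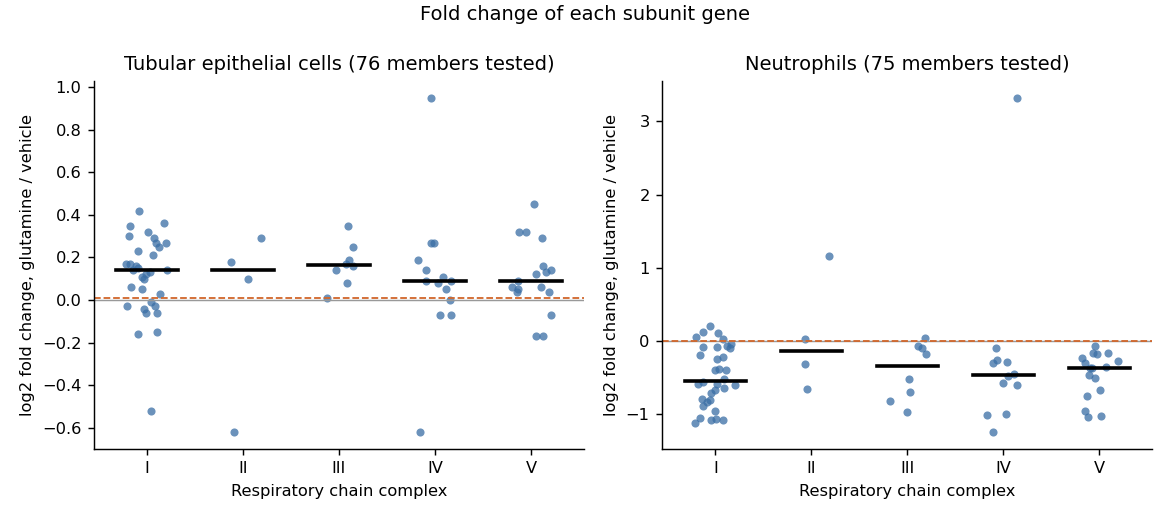
Log2 fold change, glutamine over vehicle, of each tested member by complex, in TECs (left, 76 members) and neutrophils (right, 75 members). Points are genes, bars are medians, the dashed line is the median of all genes tested and the vertical scales of the panels differ. The medians lie between 0.09 and 0.16 in TECs and between -0.54 and -0.14 in neutrophils.

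In PMN the subunit genes lay lower with glutamine than with vehicle. The summed members had 10900, 10450 and 11400 CPM in vehicle replicates 1, 2 and 3, and 9291, 8577 and 6562 CPM in glutamine replicates 1, 2 and 3. Every glutamine library lay below every vehicle library, and glutamine replicate 3 was lowest. The mean of the sum was 25.4% lower with glutamine (8143 ± 1415 against 10920 ± 476 CPM, SD, n = 3). The sums of complexes I, IV and V were 26.4%, 29.6% and 26.3% lower, each without overlap of the groups, while the sums of complex III (22%) and complex II (5.14%) overlapped. In bulk libraries of this kind, fewer cells of a type and less RNA per cell cannot be told apart. Some marker genes also lay apart between the PMN groups, as 4.63% of all genes tested did downward and 5.87% upward. Ptprc, the pan-leukocyte gene, had between 317 and 569 CPM after vehicle and between 754 and 1150 CPM after glutamine. The neutrophil protease gene Mmp9 had 574, 553 and 525 CPM after vehicle and 1343, 743 and 1307 CPM after glutamine (DESeq2 adjusted p = 0.0263, edgeR adjusted p = 0.852), and the B cell gene Cd79b had 0 counts in each vehicle library and 594, 394 and 476 counts in the glutamine libraries. The endothelial gene Cdh5 had 333, 4912 and 40 counts after vehicle and 12, 0 and 2 counts after glutamine (DESeq2 adjusted p = 0.000261, edgeR adjusted p = 1), and the stromal gene Col1a1 190, 70 and 1 counts against 0 in each glutamine library. The part of these markers in the subunit values was not tested.

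No member passed the adjusted threshold in PMN in edgeR, and 1, Atp5o, did in DESeq2. Of 75 tested members 66 had a log2 fold change below 0, against 50.0% of all 10130 genes tested, and the median was -0.40 for the members and 0.00 for all genes. In edgeR's quasi-likelihood test 0 members and 0 of all genes (0%) had an adjusted p-value below 0.05, and every member had an adjusted p-value of 1. At an unadjusted p-value below 0.05, 2 members were lower (2.67%, against 1.37% of all genes) and 0 were higher (2.04% of all genes). DESeq2 gave 12 lower and 0 higher members at its unadjusted threshold (4.47% and 4.69% of all genes), and after adjustment 1 lower and 0 higher (1.12% and 1.38% of all genes). Of the members, 14 had every glutamine library below every vehicle library (18.7%, against 4.63% of all genes) and 0 had every glutamine library above (5.87% of all genes). The values of single genes were imprecise, with standard errors of the log2 fold changes from 0.26 to 2.48.

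The sum was lower in each glutamine library, but the difference was uneven. Relative to the vehicle mean, the median member stood at -0.10 in glutamine replicate 1, -0.32 in replicate 2 and -0.75 in replicate 3, and at 0.00, -0.07 and 0.14 in the vehicle libraries. In glutamine replicate 1 the median member of complex II (0.48) and of complex III (0.18) stood above the vehicle mean. Of the 75 tested members, 22 lay below all vehicle libraries in glutamine replicate 1, 30 in replicate 2 and 48 in replicate 3. Above all vehicle libraries lay 6, 7 and 3. The share of all genes in these positions was not counted, so the counts of a single library have no background beside them. Without glutamine replicate 3, which also had the lowest neutrophil marker sum, the median of the members was -0.27 and that of all genes -0.09. The neutrophil markers did not move together in that library. S100a8, S100a9, Ly6g, Retnlg and Ngp had their lowest PMN values there, and Csf3r its highest (1790 CPM). Mmp9 lay above every vehicle library (1307 CPM), and Mmp8 and Cxcr2 lay within the range of the vehicle libraries. The 7 monocyte and macrophage markers summed to 4584, 4461 and 7760 CPM in the PMN vehicle libraries. In the glutamine libraries they summed to 5041, 4471 and 8084 CPM, highest in the same replicate 3. There C1qa (2572 CPM), Csf1r (1001 CPM), Cd68 (559 CPM) and Adgre1 (141 CPM) had their highest PMN values. Ly6c2 had its lowest there (51.8 CPM), and Ccr2 and Lyz2 lay within the range of the vehicle libraries. The groups overlapped for each of these 7 genes, and their part in the subunit values was not tested. Without vehicle replicate 1 or 2, which had the most Umod and the most Kdr, the medians of the members were -0.49 and -0.45. The proximal tubule markers were counted in every PMN library, with sums between 218 and 427 CPM. The sign of the median of the members was negative in all 16 alternative fits.

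**Figure D4:**
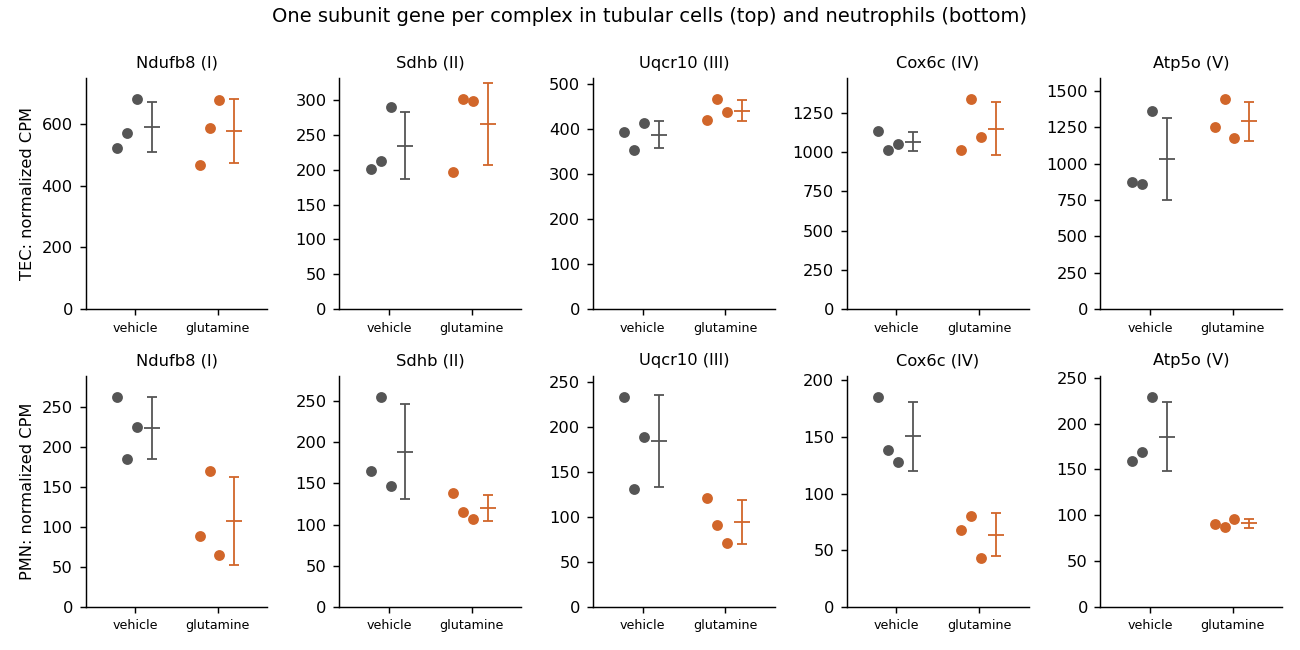
Normalized CPM of the member of each complex with the smallest p-value in neutrophils, in each TEC library (top) and each neutrophil library (bottom). Points are libraries with mean and SD beside them. In neutrophils the groups do not overlap for any of the 5 genes, and in TECs they are apart, in the other direction, for Uqcr10.

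Complex V and complex IV held the 2 PMN members past the unadjusted threshold in edgeR's test. The unadjusted threshold of DESeq2 was also passed by 3 members of complex I and 2 of complex III, all lower. Atp5o, on chromosome 16 (91925214 to 91931687, minus strand), encodes the subunit that links the catalytic head of the ATP synthase to its peripheral stalk, and its promoter is printed above. It had 159, 169 and 229 CPM after vehicle and 90.4, 86.9 and 96.3 CPM after glutamine. The glutamine libraries were tightly grouped and lay far below the vehicle libraries. The log2 fold change was -1.02 (SE 0.42 and adjusted p = 1 in edgeR's quasi-likelihood test), and DESeq2 gave an adjusted p-value of 0.0364. Cox6c, a small membrane subunit of complex IV on chromosome 15 (35925886 to 35938246, minus strand), had 185, 138 and 128 CPM after vehicle and 68.3, 80.4 and 42.9 CPM after glutamine. Its groups did not overlap either, at a log2 fold change of -1.24 (SE 0.52 and adjusted p = 1 in edgeR's test), and DESeq2 gave an adjusted p-value of 0.116.

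All 17 complex V members had a log2 fold change below 0 in PMN, from -1.04 for Atp5mpl to -0.07 for Atp5g1. Atp5e had 137, 143 and 137 CPM after vehicle and 85.4, 42.7 and 88.1 CPM after glutamine, a log2 fold change of -0.95 (standard error 0.52). Atp5h, a peripheral stalk subunit, had 176, 222 and 242 CPM after vehicle and 99.8, 159 and 122 CPM after glutamine, a log2 fold change of -0.75 (standard error 0.40). Neither had overlapping groups, and neither passed edgeR's unadjusted threshold. Atp5b, the most abundant member in PMN, had 905, 823 and 569 CPM after vehicle and 556, 499 and 573 CPM after glutamine. Here vehicle replicate 3 met the glutamine libraries, and the log2 fold change was -0.50 (standard error 0.26). Its partner in the catalytic head, Atp5a1, had 382 ± 137 and 338 ± 67.1 CPM (SD, n = 3), with overlap.

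In complex IV, 11 of 12 tested members lay below 0, with a median of -0.47. Cox7a2, the ubiquitous partner of Cox7a1, had 220, 145 and 214 CPM after vehicle and 132, 103 and 56.1 CPM after glutamine (log2 fold change -0.99, standard error 0.50). Ndufa4 had 289, 214 and 204 CPM after vehicle and 191, 91.4 and 69.0 CPM after glutamine (log2 fold change -1.01, standard error 0.51). The groups of both were apart. Cox4i1 and Cox6b1, the most abundant complex IV members in PMN, had overlapping groups and log2 fold changes of -0.45 and -0.26. The exception above 0 was Cox4i2, whose value of 3.32 (standard error 2.48) rests on the sparse counts given above.

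Complex I had the lowest median of the complexes in PMN, -0.54, with 29 of 34 tested members below 0. Ndufb8, a membrane-arm accessory subunit on chromosome 19 (44548572 to 44555440, minus strand), had the smallest p-value of the complex. It had 263, 185 and 225 CPM after vehicle and 88.9, 170 and 64.9 CPM after glutamine. The groups were apart by the small gap between vehicle replicate 2 and glutamine replicate 2, and the log2 fold change was -1.06 (standard error 0.50). Ndufs5 had 116, 75.1 and 78.0 CPM after vehicle and 29.1, 46.8 and 51.9 CPM after glutamine, also without overlap (log2 fold change -1.07, standard error 0.68). Ndufa3, Ndufa8 and Ndufb4c were the other complex I members whose groups did not overlap. The highest was Ndufv3 at 0.21 (standard error 0.87). Of the subunits followed as proteins, Ndufb9 stood at 162 ± 56.4 CPM after vehicle and 176 ± 53.1 CPM after glutamine. Ndufa11 had 77.7 ± 10.3 and 44.8 ± 20.8 CPM, and Ndufc2 had 57.5 ± 27.4 and 36.1 ± 4.47 CPM (SD, n = 3). Their groups overlapped.

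Some complex I members were nearly absent from single PMN libraries. Ndufs1 had 2614, 1160 and 49 counts after vehicle and 573, 1267 and 0 counts after glutamine. Ndufa10 had 4 counts in vehicle replicate 2 and 790 to 4838 in the others, and Ndufa12 had 1 count in vehicle replicate 1 and 522 to 2366 in the others. Ndufs6, which gave the lowest log2 fold change of complex I (-1.11, standard error 1.24), had 38 counts in glutamine replicate 3 and 708 to 1630 in the others. Such a library, with less than 1/10 of the gene's median, occurred for 4 of the 72 members with a median of at least 20 CPM (5.56%), all of them in complex I. It occurred for 36.3% of the 4760 tested genes at that level in PMN, and in TECs for 0 of 73 members and 0.137% of genes. The median SD of log2 values within a group was 0.53 for the members and 1.31 for all tested PMN genes. Ndufb4 and its near-identical copy Ndufb4c are uncertain, because the PMN reads were divided between them, differently in the 2 columns of a library, whereas in TECs all reads were on Ndufb4. Their sum had 97.0, 47.6 and 88.0 CPM after vehicle and 53.9, 34.4 and 30.4 CPM after glutamine, and those groups overlapped.

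Of the 8 complex III members, 7 lay below 0 in PMN, with a median log2 fold change of -0.34, and for 2 of them, Uqcr10 and Uqcrb, every glutamine library lay below every vehicle library. Uqcr10, a small complex III subunit on chromosome 11 (4701973 to 4704342, minus strand), had 233, 131 and 189 CPM after vehicle and 121, 90.9 and 71.3 CPM after glutamine. The groups did not overlap, at a log2 fold change of -0.97 (standard error 0.47). Uqcrb was likewise apart (144 ± 37.6 and 101 ± 10.4 CPM), whereas Uqcrc1, a core subunit and the most abundant, was nearly equal at 188 ± 61.3 and 194 ± 24.9 CPM (SD, n = 3). Uqcrh had 177 ± 31.4 and 158 ± 42.0 CPM. In complex II, 2 of 4 members lay below 0, with a median of -0.14. Sdha had 155, 23.9 and 32.4 CPM after vehicle and 124, 123 and 225 CPM after glutamine. Vehicle replicates 2 and 3 were low and replicate 1 lay among the glutamine libraries, at a log2 fold change of 1.16 (standard error 0.83). Its partner in the matrix arm, the iron-sulfur protein Sdhb, went the other way, with 165, 255 and 146 CPM after vehicle and 138, 115 and 107 CPM after glutamine and no overlap (log2 fold change -0.65, standard error 0.43). Sdhc and Sdhd overlapped, at 0.03 and -0.31.

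Genes that serve the chain without being its subunits were counted by list, and none passed an adjusted p-value of 0.05 in edgeR's test. Of 45 tested assembly factors in TECs, 34 lay below 0 (75.6%, against 49.4% of all genes) and 11 above, with a median log2 fold change of -0.33 against 0.01 for all genes. At an unadjusted p-value below 0.05, 5 were lower (11.1%, against 5.51% of all genes) and 2 higher (4.44%, against 7.23%). Every glutamine library lay below every vehicle library for 11 of them (24.4%, against 9.81% of all genes) and above for 3 (6.67%, against 9.01%). Coa3, needed to begin complex IV assembly, had 62.4 ± 25.0 CPM after vehicle and 31.7 ± 4.01 CPM after glutamine (SD, n = 3), and differed by -0.98 on the log2 scale with a standard error of 0.29. Sdhaf4, Sdhaf1, Uqcc3 and Cox17, a copper chaperone, were the others lower, at -1.44, -0.82, -0.66 and -0.60. Sco1 and Acad9 were the 2 higher, at 0.88 and 0.80. In PMN the 35 tested assembly factors had a median of 0.36, with 16 below 0 (45.7%, against 50.0% of all genes), 0 lower (1.37% of all genes) and 1 higher (2.86%, against 2.04%) at that threshold. The higher one, Atpaf1, had 0, 0 and 4 counts after vehicle and 89, 112 and 312 counts after glutamine, with an adjusted p = 0.000405 in DESeq2. The assembly factor genes varied more within a group than the subunits did (median SD of log2 CPM 1.84 against 0.53 in PMN, and 0.35 against 0.21 in TECs).

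Of the 13 tested Krebs cycle genes, 7 lay above 0 in TECs (median 0.02) and 5 in PMN (median -0.56), against 50.6% and 50.0% of all genes. At an unadjusted p-value below 0.05, 1 of the 13 was higher in TECs (7.23% of all genes) and 0 lower (5.51%), and 0 passed in PMN. The one was Idh2, mitochondrial isocitrate dehydrogenase, at 144 ± 22.8 CPM after vehicle and 212 ± 40.2 CPM after glutamine (SD, n = 3). Of the cytochrome c and ubiquinone genes, 16 were tested in TECs, with 8 above 0 and 0 past the unadjusted threshold, and 13 in PMN, with 3 above 0. Of the 13, 1 was lower (1.37% of all genes) and 1 higher (2.04%) at an unadjusted p-value below 0.05 in edgeR, and both passed DESeq2's adjusted threshold (1.12% and 1.38% of all genes). In PMN the ubiquinone-binding protein gene Coq10b had 2051, 1796 and 2226 counts after vehicle and 8387, 5908 and 8156 counts after glutamine (log2 fold change 1.96, standard error 0.36, adjusted p = 0.713 in edgeR's test and 8.112e-07 in DESeq2), and the groups were far apart. Coq7, a hydroxylase of ubiquinone synthesis, had 650, 801 and 384 counts after vehicle and 1, 0 and 0 counts after glutamine. Of the regulators, Ppargc1a, the coactivator of mitochondrial biogenesis, had 9.7 ± 1.81 CPM after vehicle and 6.82 ± 2.41 CPM after glutamine in TECs, and 24 counts in a single PMN library. None (0) of the 11 regulators tested in TECs or the 7 tested in PMN passed an unadjusted p-value of 0.05 (5.51% of all genes lower and 7.23% higher in TECs, 1.37% and 2.04% in PMN). Ndufab1, the acyl carrier subunit of complex I outside the name rule, had 67.3 ± 5.83 CPM after vehicle and 29.2 ± 14.4 CPM after glutamine in PMN, without overlap, and 203 ± 38.5 and 195 ± 44.7 CPM in TECs (SD, n = 3).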

How the data were processed

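RNA-seq of polyA-primed cDNA gave single-end reads of 50 bases. The submitters' processing notes name Trim Galore 0.6.4, Salmon 1.0.0, FastQC, MultiQC, DESeq2 and mm10, and the authors deposited estimated counts (expected counts per gene symbol, not normalized). In the deposited PMN table, extra points stood in 3.20% of the cells and 0.39% had become dates, as a spreadsheet can leave them. These were decoded, and the 2 columns of each PMN library were averaged. No per-sample column was left unused. Counts were rounded, since whole counts had been assumed when the tests were designed. Each cell type was fitted alone with edgeR 4.0.16 in R 4.3.3 (filterByExpr, TMM, quasi-likelihood test, Benjamini-Hochberg over all genes tested, threshold 0.05). The standard error was the log2 fold change over the root of the F statistic. DESeq2 1.42.0, limma-voom 3.58.1, other scalings and filters, and each library left out were the alternatives. The tests were tested on simulated data. With 3 libraries against 3, an exact permutation test cannot go below p = 0.1, and none was used. Members and lists were chosen with earlier results of these data known. Named in the text are, for each cell type and complex, the 2 most abundant members, the smallest p-value and both extremes of the fold change, and in addition isoform pairs and complex I subunits followed as proteins, of which 1 gene is not reported here. The members whose groups did not overlap, those nearly absent from a library and other pathway genes were named after their values were seen. Positions and lengths came from GENCODE M21 (84 and 80 of 85 members matched). X-linked and mitochondrially encoded subunits were not analysed here.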

Additional observations from a re-analysis of the deposited data

Results flagged for a closer look

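Uqcr10, a small subunit of complex III, was set apart because its libraries were ordered oppositely in the 2 cell types. In TECs all 3 glutamine libraries lay above all vehicle libraries (log2 fold change 0.19, standard error 0.18), and in PMN all 3 lay below (log2 fold change -0.97, standard error 0.47). It was the only member of the 73 tested in both cell types with this pattern. Each order taken alone was less rare, with 6 of 76 members (7.89%) apart upward in TECs and 14 of 75 (18.7%) apart downward in PMN. A member can therefore show both orders by coincidence. The share of all genes with both orders was not counted, so the pattern has no background beside it. The difference between the cell types was not tested.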

How the results depend on the processing

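No paired analysis was possible because vehicle and glutamine TEC libraries have 1 replicate number in common and PMN numbers only name libraries. With total counts alone as scaling, the median log2 fold change in TECs was -0.04 for the members and -0.03, -0.02, -0.01, -0.08 and -0.08 for complexes I to V, and that of all genes was -0.16. Leaving out each TEC library gave medians of 0.03 to 0.23 for the members, -0.02 to 0.30 for complex II, 0.00 to 0.21 for complex IV and 0.00 to 0.19 for complex V, the lowest without glutamine replicate 3 for complexes II and V and without vehicle replicate 4 for complex IV. In PMN these ranges were -0.57 to -0.27 for the members and -0.50 to 0.17 for complex II, which was above 0 without glutamine replicate 3 (0.17) or vehicle replicate 2 (0.09). With DESeq2, 1 PMN member passed the adjusted threshold. The causes were not tested. Other alternatives kept the sign of the members' median in both cell types, with 0.09 to 0.18 in TECs and -0.48 to -0.35 in PMN. In PMN the count of members lower at an unadjusted p-value below 0.05 ranged from 0 to 12 over the alternatives. The depth of TEC glutamine replicate 2 and the spread of the PMN libraries limit the precision of single genes.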
